A study of Mus musculus with 6 samples.

Results

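Polycomb repressive complex 1 (PRC1) was described through 9 of its subunit genes, Bmi1, Pcgf2, Cbx2, Cbx7, Cbx8, Ring1, Rnf2, Phc1 and Phc2, on 6 mouse expression arrays. Members were the probe sets that the platform's annotation gives to exactly 1 gene, that gene being in this list. They came to 12 probe sets of 8 genes, out of 12422 probe sets and 8251 singly named genes. Cbx8 had no singly named probe set and was not analysed here. Of the 12, 10 probe sets of 7 genes were bright enough to be tested, meaning that they exceeded an intensity of 86.5 on at least 3 of the 6 arrays.

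The arrays measured total RNA of double-negative thymocytes, the precursors of T cells that have neither CD4 nor CD8 on their surface. RAG1/Ezh2 double mutant mice gave 3 of the arrays and RAG1-deficient mice the other 3, so every label names RAG1 as mutant or deficient. The description of RAG1-deficient replicate 3 says RAG1 mutant. RAG1 is a subunit of the V(D)J recombinase, without which thymocytes stay at this stage. The allele of either gene, any Cre driver, the strain, sex and age, and whether the samples were separate animals are not given in the labels, and p-values therefore measure only the spread among the arrays, part of which could be technical. The sample titles come in a numbered, a Rag and a Thy style, each with 1 array of either group, and values below are listed in that order. The letters DN appear only in the numbered and Thy titles, and the title of RAG1-deficient replicates 1 and 3 ends in WT, which the labels do not explain.

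PRC1 is a chromatin repressor that places ubiquitin on histone H2A. A canonical complex joins a RING ubiquitin ligase (Ring1 or Rnf2) to a PCGF partner (Bmi1 or Pcgf2), a chromodomain protein of the CBX family that binds H3K27me3, and a polyhomeotic protein (Phc1 or Phc2). H3K27me3 is the mark placed by Polycomb repressive complex 2 (PRC2), whose methyltransferase is Ezh2. In haematopoietic cells Bmi1 is best known for sustaining stem and progenitor cells and for repressing the Cdkn2a locus.

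Each value is an intensity that had been scaled to a common mean per array before deposit. Levels of different probe sets cannot be set against each other. Differences are log2(intensity + 23) in the double mutant minus the same on RAG1-deficient arrays, given with the standard error (SE) of a limma fit with group alone (the unpaired fit). A second limma fit, called the paired fit, also had a term for title style. Both were adjusted by Benjamini-Hochberg over the 7642 tested probe sets, with a threshold of 0.05. In bulk RNA such as this, fewer cells of a type and less RNA per cell cannot be told apart.

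The targeted gene Ezh2 had intensities of 291.5, 651 and 724 on double mutant arrays, against 1435, 1641 and 1789.5 on RAG1-deficient arrays. Of 14 markers of double-negative thymocytes 12 had a singly named probe set, and each of the 12 had a tested one. RAG1-deficient replicate 1, the numbered array, stood apart with 2973 for Cd8a and 8426 for Cd8b1, genes of a later thymocyte stage, so results are also given without it where they rest on it. The Rag arrays had the highest ratios of 3′ to 5′ signal of beta-actin, a sign of shorter labelled RNA, at 2.77 in the double mutant and 2.26 in the RAG1-deficient array. The other 4 arrays lay at 1.99 and 1.24 in the double mutant and at 1.91 and 1.40 on RAG1-deficient arrays. The same ratio of Gapdh was 0.93, 1.14 and 0.84 on double mutant arrays and 1.04, 1.35 and 0.89 on RAG1-deficient arrays.

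Bmi1 had the largest difference of the tested PRC1 probe sets. Its only probe set, 101475_at, read 2704, 2552 and 3660.1 on double mutant arrays, against 910.2, 809 and 1808 in RAG1-deficient thymocytes. The lowest double mutant array lay above the highest RAG1-deficient one, and in both groups the Thy array was the brightest. The mean was 2972 ± 601 in the double mutant and 1176 ± 550 in RAG1-deficient thymocytes (SD, n = 3 each), 2.53 times as much signal in the double mutant.

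The log2 difference of Bmi1 was 1.40 ± 0.33 (SE), with a 95% interval from 0.65 to 2.14. It was higher in the double mutant in 3 of 3 pairs, with pair values of 1.55 (numbered), 1.63 (Rag) and 1.01 (Thy). Bmi1 did not pass in the unpaired limma fit (unadjusted p = 0.00234, adjusted p = 0.445) and rose in the paired limma fit (adjusted p = 0.0192). Of all tested probe sets 47 had a larger log2 difference than Bmi1, and it stood 9th by p in the paired fit.

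The call of Bmi1 depended on the pairs and on the filter. The paired adjusted p of the limma fit was 0.154 without the numbered pair, 1.5e-06 without the Rag pair and 0.0307 without the Thy pair, and 0.0555 when dim probe sets were kept in the test. Without RAG1-deficient replicate 1, the array with CD8 transcripts, the unpaired log2 difference was 1.26 (adjusted p = 0.874 in limma).

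**Figure D1:**
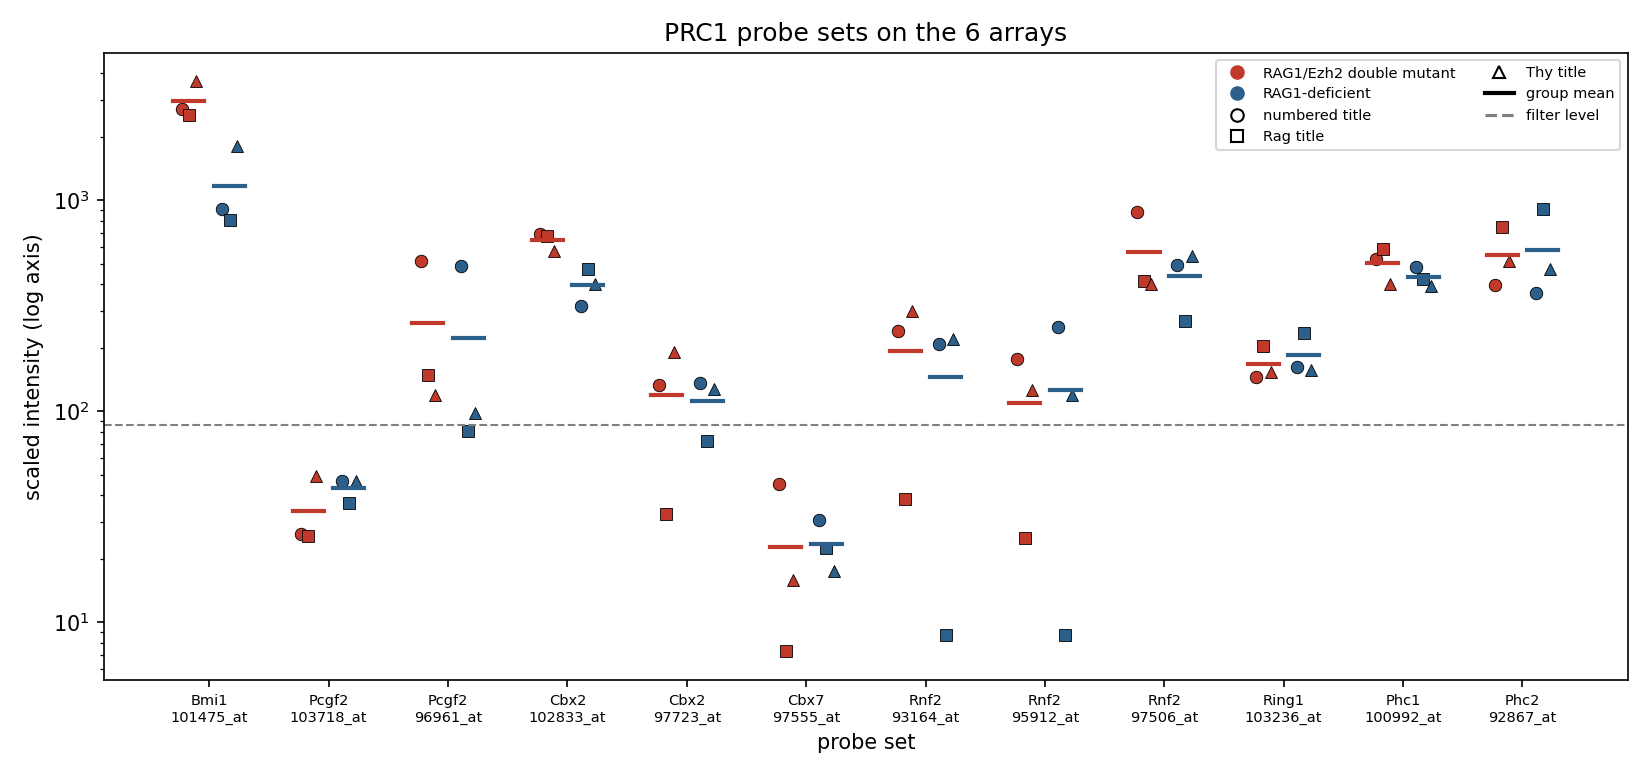
Scaled intensity (log axis) of the 12 PRC1 probe sets, with the double mutant arrays left of the RAG1-deficient arrays, a marker shape for each title style, a bar at each group mean and a dashed line at the filter level of 86.5. Bmi1 and the brighter probe set of Cbx2 are the tested probe sets whose groups do not overlap, and for 2 probe sets of Rnf2 the Rag arrays lie below the line in both groups.

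Pcgf2, also called Mel18, encodes the paralogue that can take the place of Bmi1 beside the ligase. Its brighter probe set, 96961_at, read 519, 148 and 119 on double mutant arrays, against 491, 80.8 and 98.8 in RAG1-deficient thymocytes. The numbered arrays were the highest in both groups, by 1.99 on the log2 scale over the other 4, and the groups overlapped. The log2 difference was 0.34 ± 0.70 (SE), with a 95% interval from -1.25 to 1.93, and did not pass (paired adjusted p = 0.561 in limma). Without RAG1-deficient replicate 1, the unpaired log2 difference of 96961_at was 1.07 (unadjusted p = 0.108 in limma).

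The second probe set of Pcgf2, 103718_at, was under the filter, at 26.2, 25.7 and 49.5 on double mutant arrays against 46.7, 36.9 and 46.8 on RAG1-deficient arrays, and was not tested. Within an array, log2 Bmi1 minus log2 Pcgf2 (96961_at) averaged 3.65 ± 1.20 in the double mutant and 2.59 ± 1.57 on RAG1-deficient arrays (SD, n = 3 each). The change in this difference was 1.05 (exact two-sided permutation p = 0.5, where 0.1 is the smallest possible). By pair it was higher in the double mutant in 3 of 3, by 1.47, 0.91 and 0.78, and exact sign flips of the pairs, a test added after the data were seen, gave p = 0.25, the smallest they can give. Neither test can reach 0.05 with 3 arrays per group, so unequal change of the paralogues was not shown. With single arrays left out, the change ranged from 0.19, without RAG1-deficient replicate 1, to 1.71.

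The sequence before the start of transcription was set side by side for Bmi1, for its paralogue Pcgf2 and for Phc2, since these are the measured genes with a match to the E-box CACGTG, the site of Myc and related bHLH factors. The 250 bases upstream of the start come from RefSeq on build GRCm38.p6, 5′ to 3′ on the gene's strand, with the E-box in capitals. They lie at chr2:18676768-18677017 (plus strand) for Bmi1, chr11:97699649-97699898 (minus strand) for Pcgf2 and chr4:128654452-128654701 (plus strand) for the first of 3 starts of Phc2.
Bmi1: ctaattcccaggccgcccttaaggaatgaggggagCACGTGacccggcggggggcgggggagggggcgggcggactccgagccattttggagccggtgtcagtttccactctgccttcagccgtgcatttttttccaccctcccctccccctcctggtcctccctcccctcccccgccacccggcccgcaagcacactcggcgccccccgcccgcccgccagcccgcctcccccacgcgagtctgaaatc
Pcgf2: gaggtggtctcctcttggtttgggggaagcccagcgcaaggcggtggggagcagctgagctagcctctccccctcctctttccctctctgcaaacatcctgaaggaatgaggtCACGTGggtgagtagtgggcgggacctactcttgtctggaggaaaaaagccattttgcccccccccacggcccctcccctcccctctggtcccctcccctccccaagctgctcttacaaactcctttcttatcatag
Phc2: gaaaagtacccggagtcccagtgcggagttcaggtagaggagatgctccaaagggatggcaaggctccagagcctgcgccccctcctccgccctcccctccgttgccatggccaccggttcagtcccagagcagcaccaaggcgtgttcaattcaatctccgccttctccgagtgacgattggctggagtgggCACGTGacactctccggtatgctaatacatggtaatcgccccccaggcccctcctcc
The E-box lies 215 to 210 bases before the start in Bmi1, 137 to 132 bases in Pcgf2 and 57 to 52 bases in Phc2.

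Promoters were found for 8 of the 9 genes, 10 in all with the starts of Phc2 counted singly, and none for Cbx2. The E-box, a palindrome and so the same on both strands, was present in 4 of the 10 (the fourth belongs to Cbx8), against 6.02% of all 32851 promoters of that length and 10.1% of the 5370 with at least as many CpG dinucleotides as the median member. An E2F site, TTTGGCGC or TTTCGCGC on either strand, was in 0 of the 10 and in 0.654% of all promoters; neither letter string overlaps the E-box. The members' promoters were rich in G and C, with a median of 65.6% against 52.4% over all promoters, and a median of 20.5 CpG against 6. The E-box was shared by Bmi1, called in the paired fit, and by Pcgf2 and Phc2, which did not pass.

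The CBX genes encode the subunits that read H3K27me3. Cbx2, also known as M33, had 2 tested probe sets, whose mean differences had opposite signs. The brighter, 102833_at, read 690.0, 677 and 573 on double mutant arrays, against 317, 472 and 403 on RAG1-deficient arrays. Every double mutant array lay above every RAG1-deficient one, with a mean of 647 ± 64.2 in the double mutant and 397 ± 77.8 in the RAG1-deficient thymocytes (SD, n = 3 each).

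That probe set had a log2 difference of 0.68 ± 0.23 (SE), with a 95% interval from 0.16 to 1.21, and was higher in 3 of 3 pairs, by 1.07, 0.50 and 0.48. It did not pass over all probe sets in either limma fit (unadjusted p = 0.0171 and adjusted p = 0.9999 unpaired, paired adjusted p = 0.169). Without RAG1-deficient replicate 1, its unpaired log2 difference was 0.54 (unadjusted p = 0.0594 in limma). The dimmer probe set of Cbx2, 97723_at, read 133, 32.7 and 192 on double mutant arrays, against 136, 72.6 and 128 on RAG1-deficient arrays. These groups overlapped, and its log2 difference of -0.10 ± 0.54 (SE) turned to 0.036 when RAG1-deficient replicate 1 was left out and to 0.47 when double mutant replicate 2 was. Its 95% interval, from -1.34 to 1.14, contained the 0.68 of the brighter probe set.

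Cbx7, a CBX subunit of stem and progenitor cells, was dim on every array. Its probe set 97555_at read 45.2, 7.3 and 15.9 on double mutant arrays, against 30.6, 22.6 and 17.5 in RAG1-deficient thymocytes. All 6 values were below the filter, and it was not tested.

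The ligase genes did not pass in either fit. Rnf2, which encodes RING1B, the main H2A ubiquitin ligase of mouse embryonic stem cells, had 3 tested probe sets. The brightest, 97506_at, read 885, 414 and 401.5 on double mutant arrays, against 494, 268 and 547.5 in RAG1-deficient thymocytes. The numbered double mutant array was the highest, the groups overlapped, and the direction differed between pairs, at 0.81, 0.59 and -0.43. The log2 difference was 0.33 ± 0.38 (SE), with a 95% interval from -0.54 to 1.19 (paired adjusted p = 0.625 in limma). Without double mutant replicate 1 it was -0.034.

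The other probe sets of Rnf2 followed the title style more than the genotype. For 93164_at the intensities were 239.8, 38.4 and 299.8 on double mutant arrays, against 208, 8.7 and 221 on RAG1-deficient arrays. For 95912_at they were 178, 25.1 and 127 on double mutant arrays, against 250.3, 8.7 and 119.8 on RAG1-deficient arrays. On both, the Rag array was the lowest of its group and lay below the filter.

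On the log2 scale the Rag arrays lay below the other 4 by -2.58 for 93164_at and -2.24 for 95912_at, against a median of -0.12 over all tested probe sets. A lower value than that of 93164_at was found for 0.484% of them. The Rag arrays also had the highest 3′ to 5′ ratio of beta-actin, given above, and the part of RNA quality in these low values was not tested. The log2 difference between the genotypes was 0.51 ± 0.89 (SE) for 93164_at and 0.07 ± 0.84 (SE) for 95912_at. Left without the Rag pair, the paired difference was 0.29 for 93164_at and -0.19 for 95912_at.

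Ring1, which encodes the paralogous ligase RING1A, read 145, 204 and 154 on double mutant arrays, against 162, 234 and 158 in RAG1-deficient thymocytes. The Rag array was the highest of each group, and the groups overlapped. All 3 pairs had the double mutant lower, by small amounts, with a log2 difference of -0.12 ± 0.30 (SE) and a 95% interval from -0.79 to 0.56 (paired adjusted p = 0.85 in limma). Within an array, log2 Rnf2 (97506_at) minus log2 Ring1 averaged 1.55 ± 0.78 in the double mutant and 1.11 ± 0.81 on RAG1-deficient arrays (SD, n = 3 each). The change of 0.44 was not distinguishable from the spread (exact two-sided permutation p = 0.6).

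The polyhomeotic genes encode the subunits whose SAM domains chain complexes together. Phc1 read 529, 591 and 403 on double mutant arrays, against 482.5, 422 and 391 on RAG1-deficient arrays. These values spanned a narrow range and overlapped between the groups, with a log2 difference of 0.21 ± 0.23 (SE) and a 95% interval from -0.32 to 0.74 (paired adjusted p = 0.624 in limma). It was 0.096 without double mutant replicate 2, 0.36 without double mutant replicate 3 and 0.083 with the Rag pair left out of the paired fit. Phc2 read 396, 752 and 514 on double mutant arrays, against 362.5, 906 and 472 in RAG1-deficient thymocytes. The Rag array was the highest of each group. Its log2 difference was -0.01 ± 0.37 (SE), with a 95% interval from -0.85 to 0.84 (paired adjusted p = 0.992 in limma).

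**Figure D2:**
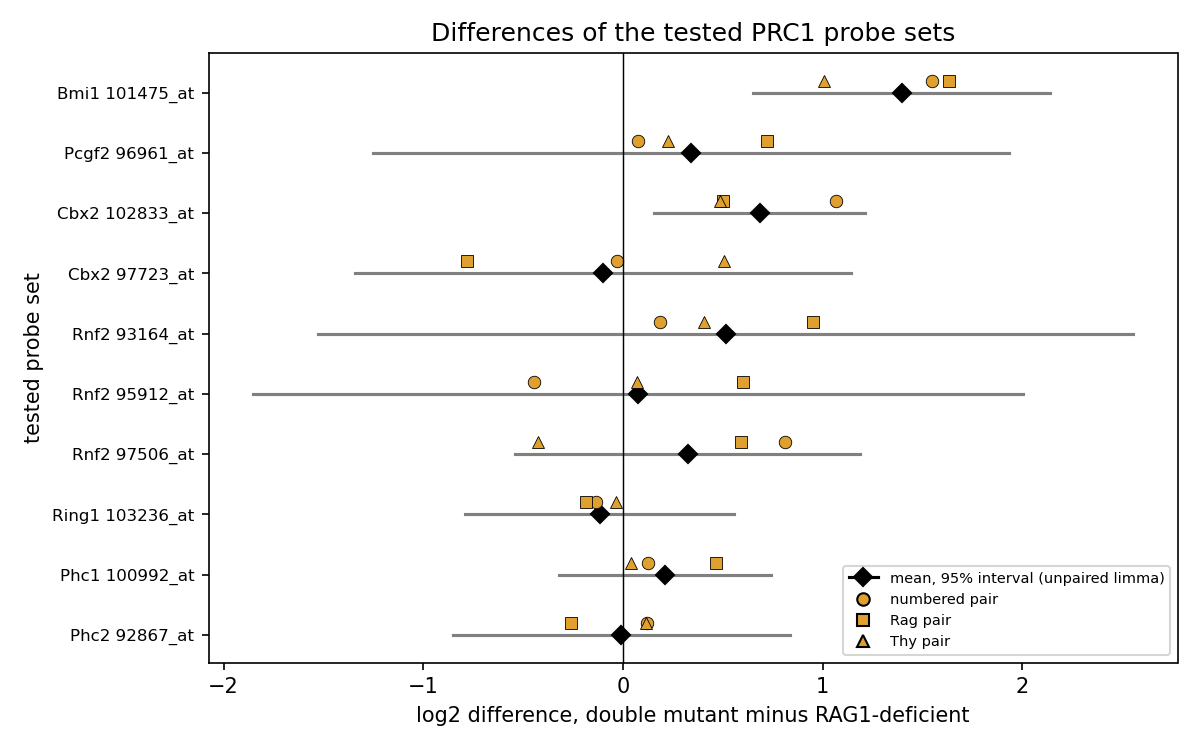
Log2 difference, double mutant minus RAG1-deficient, of the 10 tested PRC1 probe sets. Diamonds are means with the 95% interval of the unpaired limma fit, and the other markers are the numbered, Rag and Thy pairs. The 3 pairs of Bmi1 lie between 1.01 and 1.63, and the intervals of 8 probe sets span 0.

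Over the 10 tested probe sets, 0 passed in the unpaired limma fit, where 0.0393% of all tested probe sets passed, and 2 had an unadjusted p under 0.05 (Bmi1 and Cbx2 102833_at), against 3.19% of all. In the paired fit 2 had an unadjusted p under 0.05 as well, against 13.1% of all. In the paired limma fit 1 rose and 0 fell, against 0.563% higher and 0.105% lower over all tested probe sets. The groups did not overlap for 2, both higher on double mutant arrays, against 4.21% higher and 2.92% lower of all tested. The sign of the difference was the same in 3 of 3 pairs for 6 probe sets, 5 of them higher and 1 lower, where 18.8% of all tested probe sets were higher and 17.1% lower in every pair. The median log2 difference was 0.27 over these 10 and -0.002 over all tested probe sets, and 7 lay above 0 and 3 below, where 49.6% of all tested lay above 0, with Rnf2 counted 3 times and Cbx2 2 times.

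**Figure D3:**
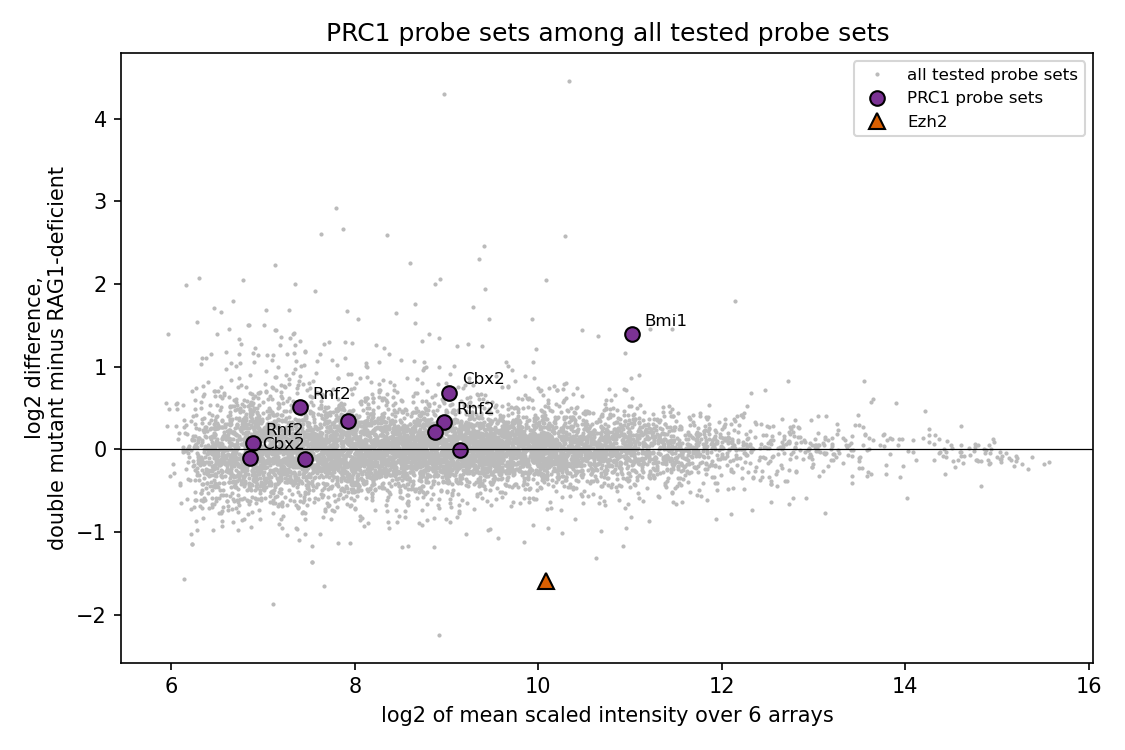
Log2 difference, double mutant minus RAG1-deficient (vertical), against log2 of the mean scaled intensity over the 6 arrays (horizontal), for 7642 tested probe sets in grey, the 10 tested PRC1 probe sets as circles and Ezh2 as a triangle. Bmi1, at 1.40, lies above the main body of points at its level, and the other PRC1 probe sets lie between -0.12 and 0.68.

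Ezh2 and Bmi1 differed in opposite directions in each pair. Ezh2 had log2 differences of -2.21, -1.30 and -1.28 in the numbered, Rag and Thy pairs, where those of Bmi1 were 1.55, 1.63 and 1.01. In size, the difference of Ezh2 was largest in the numbered pair and that of Bmi1 in the Rag pair. A relation between the genes was not tested. Like Bmi1, Ezh2 passed in the paired limma fit (adjusted p = 0.0261) and not in the unpaired one (0.332).

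Further PRC1 subunits and associated enzymes were sparsely covered. Of 24 such genes listed, 5 had a singly named probe set, Asxl1, Cbx6, Pcgf5, Scmh1 and Usp7. Their 8 tested probe sets had a median log2 difference of -0.03, with 3 above 0 and 5 below. None of the 8 passed in either limma fit, and 0 had an unadjusted p under 0.05 in either. Pcgf5, a PCGF partner of variant PRC1, read 120.5, 293 and 249.8 on double mutant arrays, against 191, 311.5 and 249.4 on RAG1-deficient arrays (log2 difference -0.22 ± 0.36 SE). The brighter probe set of Usp7, a deubiquitinase that associates with PRC1, differed by -0.12 ± 0.20 (SE), and that of Asxl1, a partner of the H2A deubiquitinase Bap1, by -0.08 ± 0.21 (SE).

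Of 12 listed genes of PRC2 and its cofactors, 11 had a tested probe set, 16 probe sets in all with a median log2 difference of 0.13. In the paired limma fit 1 of them fell, Ezh2, and 0 rose, against 0.105% lower and 0.563% higher over all tested probe sets. An unadjusted p under 0.05 was found for 1 in the unpaired limma fit and 3 in the paired one, against 3.19% and 13.1% of all tested. The 14 listed genes that PRC1 represses in other cell types were mostly dim, and 2 of them, Cdkn1a and Pax5, had a tested probe set. None of their 3 tested probe sets passed in either limma fit. An unadjusted p under 0.05 was found for 0 unpaired and 1 paired, against 3.19% and 13.1% of all tested. That 1 was Pax5, the B lineage factor, whose probe set 96993_at read 33.2, 53.5 and 153 on double mutant arrays, against 156, 121.5 and 147 on RAG1-deficient arrays. The Thy arrays of both groups were close, the groups overlapped, and the log2 difference was -0.85 ± 0.48 (SE). The other probe set of Pax5, 102578_at, was under the filter and not tested, at 22.6, 16.4 and 17.2 on double mutant arrays against 15.1, 17.4 and 20 on RAG1-deficient arrays.

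The CDK inhibitor gene Cdkn1a differed by 0.14 ± 0.35 (SE) and -0.08 ± 0.35 (SE) over its 2 probe sets. Cdkn2a, the best known target of Bmi1, is outside the naming rule and was chosen after its values were seen. It exceeded the filter on 1 array of each group, at 54.8, 65.6 and 267 on double mutant arrays against 106, 43.5 and 52.2 on RAG1-deficient arrays, and was not tested. Of the 13 target probe sets under the filter, the groups did not overlap for those of Hoxa7 and Hoxd11 and overlapped for all the others. Both genes are also outside the rule and were chosen for this after their values were seen. Over all tested probe sets the groups did not overlap for 4.21% higher and 2.92% lower in the double mutant. Hoxa7 read 225, 184.9 and 38 on double mutant arrays, against 25.4, 33.6 and 31.2 on RAG1-deficient arrays. Hoxd11 was lower, at 31.6, 13.3 and 18.6 against 32.3, 46.2 and 32.4. Neither was tested.

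None of the 4 measured genes near Bmi1 on the chromosome passed in either limma fit. Commd3, its immediate upstream neighbour, read 197, 114 and 111 on double mutant arrays, against 239.6, 50 and 195 in RAG1-deficient thymocytes, with a log2 difference of -0.02 ± 0.51 (SE). The 3 probe sets of Pip4k2a, the third protein-coding gene downstream, differed by -0.35, -0.08 and -0.0014. Further upstream, the tested probe set of Dnajc1 differed by -0.093 ± 0.25 (SE) and that of Mllt10 by 0.066 ± 0.47 (SE). Commd3, Dnajc1 and Mllt10 are outside the naming rule and were chosen after their values were seen. Of the 14 genes listed as lying near a member, 8 had a singly named probe set, and 0 of 10 tested probe sets passed in either limma fit or had an unadjusted p under 0.05. H2-Ke6 and Vps52, near Ring1, had log2 differences of -0.21 ± 0.25 (SE) on the brighter probe set of H2-Ke6 and -0.14 ± 0.22 (SE) for Vps52.

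The 5 probe sets whose profile over the 6 arrays was most like that of Bmi1 were found by the root-mean-square distance between log2 values centred on their own mean, out of 6876 singly named probe sets. They were Fzd3, a Wnt receptor (distance 0.26), Gzmb, a granzyme of killer cells (0.27), Ctnna1, the alpha-catenin of cell junctions (0.27), Ak4, a mitochondrial adenylate kinase (0.28), and Rbpms, an RNA-binding protein (0.31). The median distance over all tested probe sets was 0.86. Being chosen for likeness to Bmi1, they were bound to be higher in the double mutant. Their log2 differences lay between 1.01 and 1.31, and Gzmb and Ctnna1 rose in the paired limma fit (adjusted p = 0.0261 for both).

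**Figure D4:**
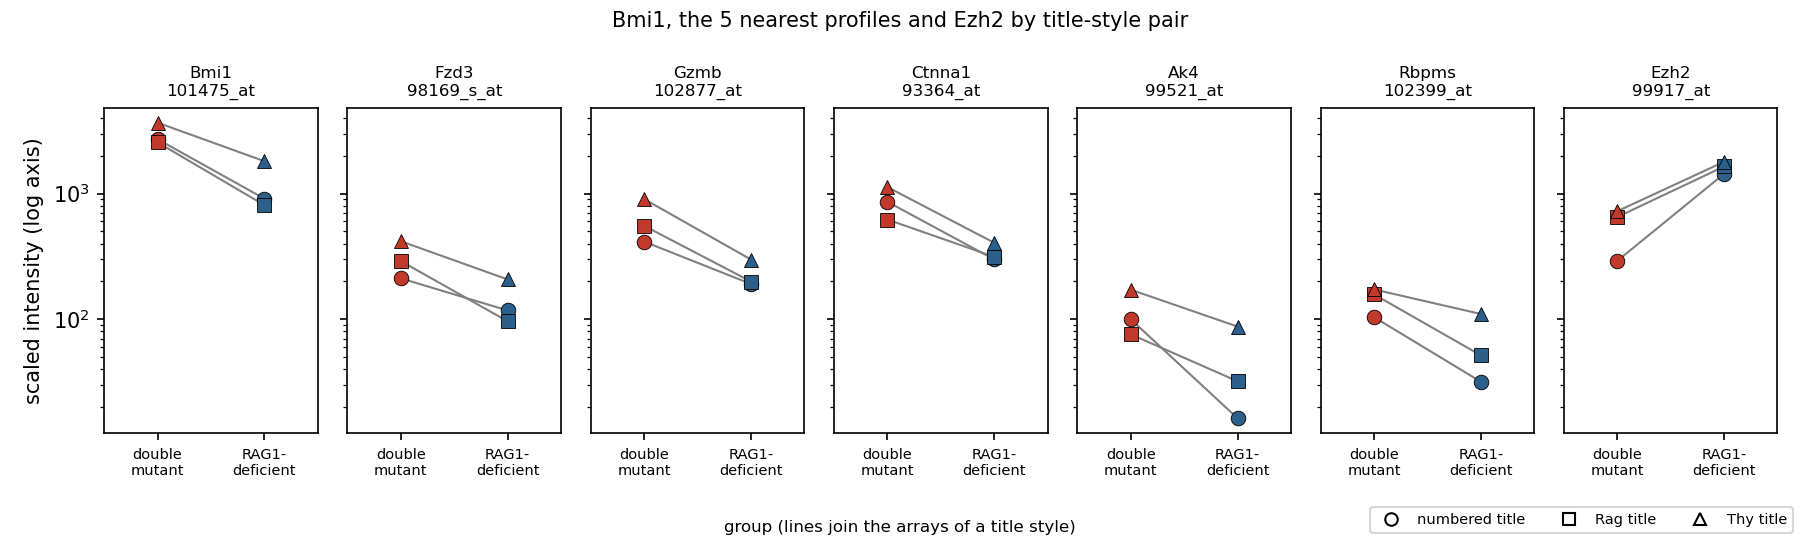
Scaled intensity (log axis) of Bmi1, of the 5 probe sets nearest to it in profile and of Ezh2, with the double mutant arrays left, the RAG1-deficient arrays right, and a line joining the arrays of a title style. Bmi1 is higher in the double mutant in 3 of 3 pairs, and Ezh2 lower in 3 of 3 pairs.

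Transcripts of some marker lists, for other cell types and for the cell cycle, differed between the groups to some extent. For the NK and innate lymphoid list, 9 of 11 genes were measured. Their summed level over the brightest probe set of each gene ran between 10274 and 12149 in the double mutant and between 4380 and 6375 on RAG1-deficient arrays, without overlap. Gzma alone read 8096, 7946 and 4982 on double mutant arrays, against 2796, 2163 and 1244 on RAG1-deficient arrays. Without Gzma the sums overlapped, at 3121 to 5292 in the double mutant and 3135 to 3579 on RAG1-deficient arrays, a sum added after the data were seen. Of the 7 tested probe sets of this list 5 lay above 0, where 49.6% of all tested did, and 2 below, with a median log2 difference of 0.45. The 2 below were Klrd1 and Il2rb, receptor genes of NK cells, at -0.32 and -0.02. Above 0 were Gzma, Gzmb, the receptor gene Ncr1 (0.45), the tested probe set of Zbtb16 (1.36) and Id2 (0.15). That of Zbtb16 read 4.9 on RAG1-deficient replicate 3. Under the filter and not tested, both probe sets of Eomes (-0.51 and -0.40) and the other of Zbtb16 (-0.51) lay below 0, and Prf1 (0.04) above. Gzma and Gzmb were the 2 of the 7 that rose in the paired limma fit. For the cell cycle list, 22 of 24 genes were measured, and their summed level ran between 40454 and 49882 in the double mutant and between 31983 and 37182 on RAG1-deficient arrays.

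All 26 tested cell cycle probe sets lay above 0, where 49.6% of all tested did, with a median log2 difference of 0.39. In limma 0 of them passed in either fit. An unadjusted p under 0.05 was found for 4 in the unpaired limma fit and 16 in the paired one, against 3.19% and 13.1% of all tested. Summed levels overlapped between the groups for markers of double-negative thymocytes, B lineage, myeloid, antigen-presenting, erythroid and stromal or epithelial cells. Tested probe sets below 0 were 15 of 16 for double-negative thymocytes (median log2 difference -0.22), 9 of 9 for antigen-presenting cells (-0.41) and 9 of 10 for B lineage (-0.21). They were 5 of 6 for stromal or epithelial cells (-0.08), 4 of 7 for myeloid cells (-0.37) and 1 of 4 for erythroid cells (0.15). Of the 7642 tested in all, 3852 were below 0. In paired limma an unadjusted p under 0.05 was found for 5, 3, 1, 1, 0 and 1 probe sets of these lists, in that order. The share over all tested probe sets was 13.1%. Among these the stromal marker Pdgfrb rose by a log2 difference of 1.22 (adjusted p = 0.0436 in paired limma), and the other markers did not pass. The part of any of these lists in the difference of Bmi1 was not tested. For the double-positive stage, with 7 of 8 genes measured, the sums did not overlap, at 970.1 to 1114 in the double mutant and 1179 to 13224 on RAG1-deficient arrays, the highest being the array with CD8 transcripts. Of the 6 tested probe sets of this list 5 lay below 0, with a median log2 difference of -0.43. The medians by pair were -0.50 (numbered), -0.35 (Rag) and -0.19 (Thy). In limma 0 passed in either fit, and 3 had an unadjusted p under 0.05 in the paired one, against 13.1% of all tested. No marker was at 0 on any array, since the lowest deposited intensity was 0.1.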

How the data were processed

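Total RNA of 6 samples (3 RAG1/Ezh2 double mutant, 3 RAG1-deficient) had been measured on single-colour Affymetrix arrays. The deposited table holds a linear intensity for each of 12488 probe sets per array; read from the deposited intensities, the 2%-trimmed means lay between 500.293 and 500.37, so the arrays had been scaled to a common mean. The software that made the values is not given in the sources used here. The 66 control probe sets were left out. The pseudocount of 23 and the filter of 86.5 are the 20th percentile (rounded) and the 40th percentile of all values. Genes came from the platform annotation, with symbols looked up in RefSeq (0 changed); 10833 probe sets had 1 gene, 396 several and 1193 none.

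limma 3.58.1 in R 4.3.3 (lmFit, eBayes with trend, two-sided) was run on all 7642 tested probe sets. The code was tried on simulated data with less spread than these arrays, no effect of title style and large added differences. That trial checks the code and does not measure how well the fit finds differences in these arrays. The arrays' number limits the precision. Within-array differences used an exact permutation test in scipy 1.17.1. Replicate numbers 1, 2 and 3 name the numbered, Rag and Thy title styles in both groups. Deviations from the group means correlated at 0.570, 0.736 and 0.602 between the arrays of a style, above the limit of 0.1 set for pairing. The pairing is read from titles and data; no label states a shared batch.

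Named were every member probe set, Ezh2, in each further Polycomb, target and neighbour list the genes that passed or otherwise the 3 with the smallest p, and the 5 profiles nearest to Bmi1; names outside this rule are marked as such or are markers. The members and lists were chosen with earlier results of these data known. Alternatives were other pseudocounts, filters, scaling, no trend, the block and arrays left out.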

Additional observations from a re-analysis of the deposited data

How the results depend on the processing

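With title style as a replicate block, 1 PRC1 probe set (Bmi1, log2 difference 1.40) and 43 probe sets in all were higher and 8 lower, against 0, 3 and 0 without it; it changed the call of no other PRC1 probe set. With the block, Bmi1 stayed past the threshold with quantile normalization (1.39; 17 higher in all), pseudocount 1 (1.41; 24 higher, 6 lower) and pseudocount 100 (1.33; 46 higher, 9 lower), where it was the 1 PRC1 call, but not without the filter (5 higher in all, 0 PRC1). Without the block, Bmi1 did not pass under any alternative run, and the probe sets higher in all were 1 with the filter on all 6 arrays and 5 with quantile normalization. Leaving out single arrays gave 0 (without replicate 3 of either group) to 6 (without RAG1-deficient replicate 1) higher in all, 0 PRC1 calls and a Bmi1 difference of 1.18 to 1.75. Leaving out a pair with the block gave 3 to 127 higher (12 without the numbered pair), 0 to 64 lower, 0 to 1 PRC1 calls and a Bmi1 difference of 1.28 to 1.59; with 2 arrays left per group, the spread in these fits comes mostly from moderation across probe sets. For Ezh2 the block moved the call with the difference at -1.60, at -1.64 with pseudocount 1 and -1.46 with pseudocount 100. That call was lost with the block and quantile normalization (adjusted p = 0.0588 in limma), no filter (0.0716), the numbered pair left out (0.0796) or the Thy pair left out (0.111).

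Of the uncalled member probe sets, 2 kept their sign under every alternative run, Cbx2 102833_at (0.49 to 0.81) and Phc1 (0.083 to 0.36), and the other 7 did not. Rnf2 95912_at was at -0.029 with pseudocount 100, with and without the block, and Phc2 at 0.0041 with quantile normalization, with and without the block. With arrays or pairs left out, log2 differences ranged from -0.50 to 0.47 for Cbx2 97723_at, -0.26 to 1.07 for Pcgf2, -0.28 to 0.35 for Phc2, -0.25 to 0.048 for Ring1, -0.45 to 1.26 for Rnf2 93164_at, -0.81 to 0.75 for 95912_at and -0.034 to 0.52 for 97506_at (0.70 with a pair left out). Rnf2 minus Ring1 within an array ranged from -0.023 to 0.74 with single arrays left out. Without the Rag pair, the paired differences of Cbx2 97723_at, Phc2 and Rnf2 95912_at were 0.24, 0.12 and -0.19. The cause was not tested.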
